A study of Mus musculus with 16 samples.

Results

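The interferon-inducible GTPases described here were 10 of the 52636 genes counted in mouse islets, chosen by symbol and not by level. They were 6 guanylate-binding proteins (Gbp2, Gbp3, Gbp5, Gbp6, Gbp7 and Gbp9) and 4 immunity-related GTPases (Irgm1, Irgm2, Igtp and Iigp1). Islets, the endocrine cell clusters of the pancreas, came from 12-week-old male mice whose strain is labelled C57BL/6JRj and written C57BL/6NRj in the methods of the study. They were kept for 10 days as control without additions, with 50 pg/mL of IL-1β, an inflammatory cytokine, with 0.2 mM butyrate, a short chain fatty acid, or with IL-1β and butyrate together. All conditions shared the culture medium with human serum, and no allele or transgene was involved. Each condition had 4 libraries numbered as replicates 1 to 4, each from 500 islets that were pooled from several animals, so that a p-value concerns experiments and not single mice.

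Guanylate-binding proteins and immunity-related GTPases are large GTP-hydrolysing proteins that gather on the membranes of vacuoles holding microbes and help to break them open. Their genes are among those most strongly switched on by interferon-γ, with Irf1 among the factors that act on them, and the family is known from macrophages as well as from many other cells. The regulatory immunity-related GTPases Irgm1, Irgm2 and Igtp (also called Irgm3) keep effector members such as Iigp1 in an inactive state on the membranes of the cell itself.

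The libraries had 18635943 to 25955943 counts, so that 1 CPM (counts scaled to a common library size by TMM) stood for 19.1 to 27.7 counts. After the filter on low counts, 18587 genes were tested, among them 9 of the 10 GTPases, while Iigp1 had at most 6 counts in a library. Beta cell markers were high in every library, as the label islet requires, with summed levels from 136869 to 261225 CPM. Markers of macrophages were also present, and their levels are given beside the results.

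The genes lie in 4 places of the genome (build GRCm38, GENCODE M21), and all are protein coding. Gbp5 (ENSMUSG00000105504, chr3:142493978-142522344), Gbp7 (ENSMUSG00000040253, chr3:142530342-142550149), Gbp3 (ENSMUSG00000028268, chr3:142560026-142573209) and Gbp2 (ENSMUSG00000028270, chr3:142620602-142638008) lie in 1 cluster on the plus strand. Gbp9 (ENSMUSG00000029298, chr5:105077630-105139539) and Gbp6 (ENSMUSG00000104713, chr5:105270702-105293698) lie on the minus strand of chromosome 5. On chromosome 11, Irgm1 (ENSMUSG00000046879, chr11:48861968-48871683) is on the minus strand, and Igtp (ENSMUSG00000078853, chr11:58199556-58207591) and Irgm2 (ENSMUSG00000069874, chr11:58199618-58222782) overlap on the plus strand. Iigp1 (ENSMUSG00000054072) lies elsewhere. Of the exon bases of Gbp6, 29.0% also belonged to the transcript unit Gm43302, and 70.7% of its stretches of 50 bases were found in another gene, 65.0% in Gm43302. For Igtp this share was 11.8%, for Irgm2 7.8%, for Gbp9 8.0%, for Gbp7 12.7%, and for the other 5 members at most 3.8%. Apart from Mir6381, which is antisense to Gbp2, the overlapping genes lie on the same strand, so a strand setting would not separate their reads. Reads of these overlaps, and of stretches found in several genes, could have been given to either gene or to none.

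Because the members are interferon targets, their promoters were searched for the letters of the interferon-stimulated response element (ISRE), GAAA and GAAA with any 2 bases between them, on either strand. RefSeq promoter windows of 250 bases before to 50 bases after a gene's start (GRCm38.p6) were at hand for 7 of the 10 members. The ISRE letters stood in 7 of the 8 windows of these members, at least 1 for each of the 7, and in 3.44% of all 32851 windows. The stretches of 30 bases that hold them are printed 5′ to 3′ on the strand of the gene, with the matches in capitals, so that they can be compared.
Gbp5, chr3:142496759-142496788, plus strand: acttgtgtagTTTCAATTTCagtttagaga
Gbp7, chr3:142530273-142530302, plus strand: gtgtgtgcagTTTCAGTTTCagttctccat
Gbp3, chr3:142559992-142560021, plus strand: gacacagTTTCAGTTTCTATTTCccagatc
Gbp2, chr3:142620594-142620623, plus strand: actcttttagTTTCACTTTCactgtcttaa
Irgm1, chr11:48871428-48871457, minus strand: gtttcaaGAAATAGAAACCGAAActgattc
Igtp, chr11:58199507-58199536, plus strand: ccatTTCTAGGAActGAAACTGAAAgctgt
Irgm2, chr11:58214898-58214927, plus strand: ccatTTCCAGGAActGAAACTGAAAgctgt
In the 4 Gbp genes of chromosome 3 the match was on the strand opposite to the gene, and in the 3 genes of chromosome 11 on the strand of the gene. Gbp3 and Irgm1 held 2 matches that overlap. Compared base by base, the stretches of Gbp5 and Gbp2 were identical at 20 of 30 bases, Gbp5 and Gbp7 at 19, and Gbp7 and Gbp2 at 15. Apart from Igtp and Irgm2, the other pairs were identical at only 2 to 11 bases. The stretches of Gbp5, Irgm1 and Irgm2, and part of that of Gbp2, lie within the gene spans given above, as the RefSeq starts differ from the ends of those spans. The stretches of Igtp and Irgm2 were identical at 29 of 30 bases and also hold, in capitals before the ISRE, the letters of a gamma-activated site, TTCNNNGAA. That motif was in 4 of the 8 windows, those of 4 of the 7 members (Gbp5, Gbp7, Igtp and Irgm2), and in 8.3% of all windows. The NF-κB motif, searched because IL-1β acts through NF-κB, was in 2 of the 8 windows, those of Gbp5 and Gbp2, 2 of the 7 members, and in 8.46% of all windows. These matches describe the letters only and say nothing of binding.

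The first comparison asked what 10 days of IL-1β did to the GTPases. IL-1β raised 9 of the 9 tested members, from 1.26-fold for Gbp7 to 44.5-fold for Gbp6, where 11.2% of all genes tested were raised and 6.59% lowered. In 8 of the 9 the CPM of the 4 IL-1β libraries were all above those of control, as in 14.1% of all genes. The median log2 fold change was 1.60 over these 9 members, 0.48 over the 7 without Gbp2 and Gbp6, and -0.03 over all genes. Gbp2 and Gbp6 had too few counts in the control and butyrate libraries to pass the filter there. They passed it through the libraries with IL-1β, so the filter favoured their rise. The other 7 tested members were raised as well. With the counts scaled in other ways the members kept their direction, but the genes called overall split differently, 2087 raised and 1224 lowered with TMM, 1914 and 1800 with upper quartiles, and 2798 and 708 with library size only.

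The rise was steepest in the 2 members on chromosome 5. Gbp6 was at 0.187, 0.208, 0.191 and 0.214 CPM in control replicates 1 to 4, where it had 4 or 5 counts, and at 9.56, 8.23, 9.02 and 9.82 CPM with IL-1β. These groups lie far apart, and the log2 fold change was 5.48 ± 0.21 (SE, edgeR quasi-likelihood adjusted p = 2.7e-17). Gbp9 had 0.840, 0.542, 0.526 and 0.471 CPM in control and 14.4, 13.6, 17.2 and 18.9 CPM with IL-1β. Its lowest IL-1β library thus stood well above its highest control library, with a log2 fold change of 4.75 ± 0.18 (adjusted p = 4e-17). With the counts of Gbp6, Gbp10 and Gm43302 added together, a grouping chosen after their values were seen, the log2 fold change was 5.66 ± 0.20, and for Gbp4, Gbp8 and Gbp9 together it was 3.70 ± 0.15.

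On chromosome 3, Gbp2, which coats the vacuoles of Toxoplasma, and Gbp3 rose to a lesser extent. Gbp2 had 0.513, 0.5003, 0.239 and 0.428 CPM in control and 3.21, 3.26, 2.64 and 3.39 CPM with IL-1β, a log2 fold change of 2.87 ± 0.24 (edgeR adjusted p = 4.4e-10). Gbp3 had 0.933, 0.5003, 0.717 and 0.899 CPM in control and 3.67, 4.67, 4.51 and 4.76 CPM with IL-1β, a log2 fold change of 2.53 ± 0.19 (adjusted p = 2.8e-11). Neither gene had overlapping groups. Gbp5, a member linked to inflammasome activation, went from 0.727 ± 0.10 CPM (SD, n = 4) in control to 2.21 ± 0.018 CPM with IL-1β. It had 14 to 18 counts a library in control and 43 to 61 with IL-1β, where the SD is smaller than counting error at such counts. Its log2 fold change was 1.60 ± 0.30 (edgeR adjusted p = 0.00016). Gbp7 was already high in control, at 10.2 to 12.6 CPM, and at 12.5 to 14.9 CPM with IL-1β. The 2 ranges of Gbp7 overlapped, its log2 fold change was 0.34 ± 0.08 (adjusted p = 0.003), and the call was lost without control replicate 2, 3 or 4 or IL-1β replicate 4, with adjusted p-values from 0.011 to 0.016.

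The 3 regulatory members on chromosome 11 were well above 1 CPM in control and had small rises. Irgm1 had 16.4, 17.2, 13.6 and 13.8 CPM in control and 23.2, 21.8, 20.01 and 20.5 CPM with IL-1β, a log2 fold change of 0.48 ± 0.08 (edgeR adjusted p = 2.2e-05). Every IL-1β library was above every control library. Igtp went from 4.79 to 5.51 CPM in control to 6.69 to 8.12 CPM, a log2 fold change of 0.46 ± 0.10 (adjusted p = 0.00082). Irgm2 went from 6.02 to 7.09 CPM to 7.87 to 9.12 CPM, a log2 fold change of 0.39 ± 0.09 (adjusted p = 0.0016), and the ranges of both genes were apart. The effector Iigp1 had 0, 3, 0 and 2 counts in control and 2, 2, 2 and 1 counts with IL-1β, so that both conditions were at or under the floor of 3 counts a library and no fold is given.

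**Figure D1:**
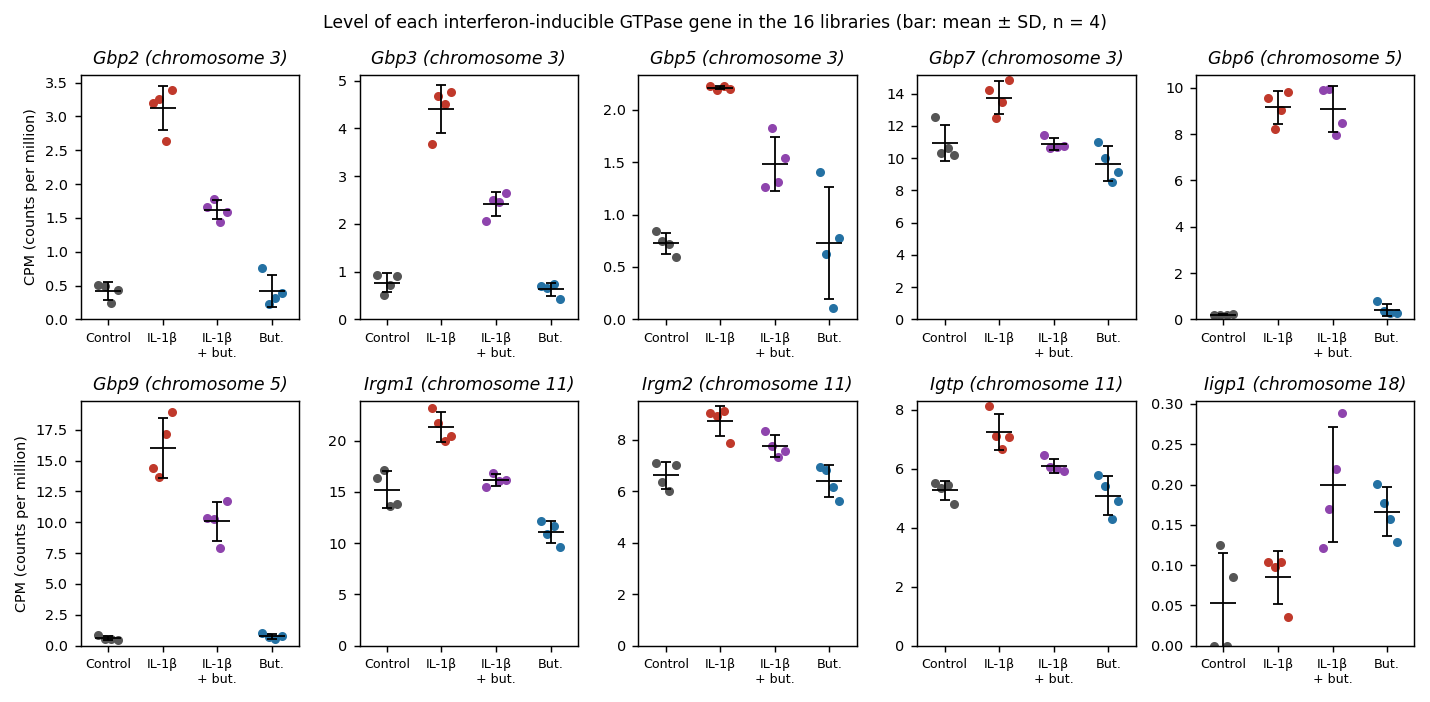
Level of each of the 10 genes in CPM (vertical axis from 0, its own scale in each panel) in the 4 libraries of each condition (points, left to right replicates 1 to 4) with mean and SD. Gbp6 and Gbp9 are near 0 in control and butyrate and at 7.93 to 18.9 CPM with IL-1β, whereas Irgm1 is at 13.6 to 17.2 CPM already in control.

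The make-up of the family differed with IL-1β as well as its sum, which is given as a description. The 10 genes together had 40.8 ± 3.2 CPM (SD, n = 4) in control and 86.1 ± 3.1 CPM with IL-1β, from 798 to 1002 and from 1639 to 2477 counts a library. Gbp6 and Gbp9 held 1.94% of these counts in control and 29.2% with IL-1β. The share of Irgm1, Irgm2 and Igtp was 66.5% in control and 43.4% with IL-1β, and that of the 4 members on chromosome 3 was 31.4% and 27.3%.

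**Figure D2:**
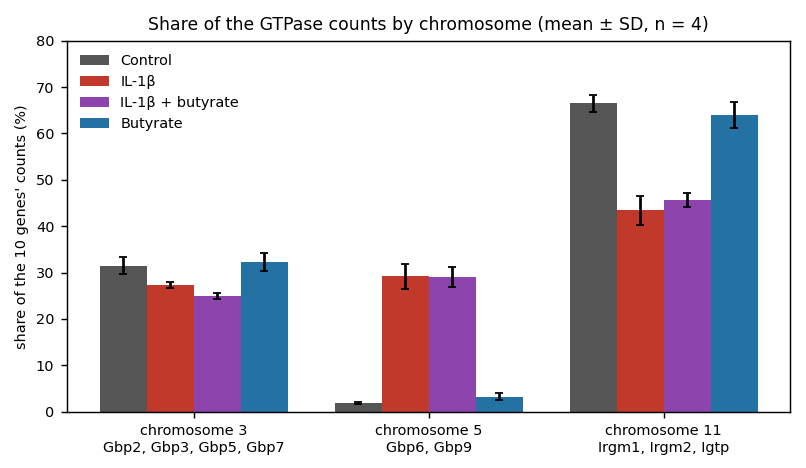
Share of the counts of the 10 genes in percent (vertical axis) held by the members on chromosomes 3, 5 and 11 in each condition (bars, mean with SD over 4 libraries). The bars of chromosome 5 are at 1.94% and 3.26% in control and butyrate and at 29.2% and 29.1% in IL-1β and IL-1β with butyrate.

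To compare genes with each other, levels were divided by the length of the exons, as CPM per kilobase. In control, Irgm1 (2.62) and Igtp (2.61) were highest and overlapped, followed by Gbp7 (1.95) and Irgm2 (1.79), which also overlapped. All other members were at 0.233 CPM per kilobase (Gbp3) or below, down to 0.0336 for Gbp6 and 0.00905 for Iigp1. With IL-1β, Gbp9 stood at 3.10 CPM per kilobase beside Irgm1 (3.68) and Igtp (3.58), and neighbours in the order from Irgm1 to Irgm2 (2.37) overlapped. Gbp6 (1.54), Gbp3 (1.35) and Gbp2 (1.24) followed with overlapping ranges, above Gbp5 (0.333) and Iigp1 (0.0146). With both agents the order was Igtp (3.02), Irgm1 (2.78), Irgm2 (2.10), Gbp9 (1.95), Gbp7 (1.94), Gbp6 (1.52), Gbp3 (0.741), Gbp2 (0.644), Gbp5 (0.224) and Iigp1 (0.0343), and only Irgm2, Gbp9 and Gbp7, and Gbp3 and Gbp2, overlapped with their neighbour. With butyrate alone, Igtp (2.52) was above Irgm1 (1.91), Irgm2 (1.73) and Gbp7 (1.72), and the next member, Gbp3, was at 0.194 CPM per kilobase. Counted per longest transcript in place of all exons, Irgm1 was above Igtp in these 2 conditions. With both agents, Gbp6 (2.14) was then also above Gbp9 (2.00) and Gbp7 (1.94), so its place in the order rests on the length used.

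The second comparison asked what butyrate did to the members in the presence of IL-1β. It shares the IL-1β libraries with the first, so the 2 sets of values are given side by side and are not independent. Butyrate lowered 5 of the 9 tested members (Gbp2, Gbp3, Gbp7, Gbp9 and Irgm1), where 11.1% of all genes tested were lowered and 8.41% raised, and it raised none (edgeR, 0 at an unadjusted p under 0.05, and 0 with DESeq2). In 7 of the 9 all libraries with both agents were below those with IL-1β, as in 14.5% of all genes. The median log2 fold change was -0.40 over the tested members and 0.01 over all genes. The genes called overall were 1563 raised and 2066 lowered, and 2137 and 1566 with upper-quartile scaling.

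Gbp2 fell to 1.66, 1.78, 1.45 and 1.59 CPM in the 4 libraries with both agents, all below the 2.64 to 3.39 CPM with IL-1β alone, a log2 fold change of -0.95 ± 0.20 (edgeR adjusted p = 0.0005). Gbp3 had 2.07, 2.504, 2.45 and 2.65 CPM with both agents, a log2 fold change of -0.87 ± 0.16 (adjusted p = 0.00011). Gbp9 had 10.4, 10.3, 7.93 and 11.7 CPM, a log2 fold change of -0.68 ± 0.11 (adjusted p = 4.8e-05). All 3 genes were without overlap between the groups, and all 3 remained above control. In the sum of Gbp4, Gbp8 and Gbp9 the log2 fold change was -0.25 ± 0.11 (edgeR adjusted p = 0.10). Only 1.2% of the exon bases of Gbp9 also belonged to Gbp4 or Gbp8, so this sum mostly adds the counts of separate genes. With IL-1β, Gbp9 was at 16.02 CPM in that sum, beside 19.9 CPM for Gbp8 and 17.1 CPM for Gbp4. Which of these genes the sum follows was not tested.

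Gbp6 gave other values than Gbp9, the second member on its chromosome. Gbp6 had 9.91, 9.93, 7.97 and 8.47 CPM with both agents against 8.23 to 9.82 CPM with IL-1β alone, so the groups overlapped fully. Its log2 fold change was -0.01 ± 0.11 (edgeR adjusted p = 0.94), and -0.06 ± 0.10 (adjusted p = 0.72) in the sum with Gbp10 and Gm43302. Whether Gbp6 and Gbp9 differed from each other in this response was not tested.

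Of the members with high starting levels, Irgm1 had 15.5, 16.9, 16.03 and 16.1 CPM with both agents, below all IL-1β libraries and within the control range, with a log2 fold change of -0.40 ± 0.08 (edgeR adjusted p = 0.00022). Gbp7 was at 10.7 to 11.4 CPM, also within its control range, with a log2 fold change of -0.34 ± 0.08 (adjusted p = 0.0025). Gbp5, Igtp and Irgm2 were not called. Gbp5 had 1.26 to 1.82 CPM with both agents, all below its IL-1β libraries, and a log2 fold change of -0.57 ± 0.26 (adjusted p = 0.10). Igtp had 5.92 to 6.46 CPM, also below all IL-1β libraries, and -0.24 ± 0.10 (adjusted p = 0.06). Irgm2 had 7.31 to 8.32 CPM, overlapping with IL-1β, and -0.17 ± 0.09 (adjusted p = 0.17). With the counts of Igtp and Irgm2 added, the log2 fold change was -0.20 ± 0.07 (adjusted p = 0.034). Iigp1 had 3, 4, 5 and 6 counts with both agents against 1 or 2 with IL-1β alone, and in a fit without the filter it was not called (adjusted p = 0.31).

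**Figure D3:**
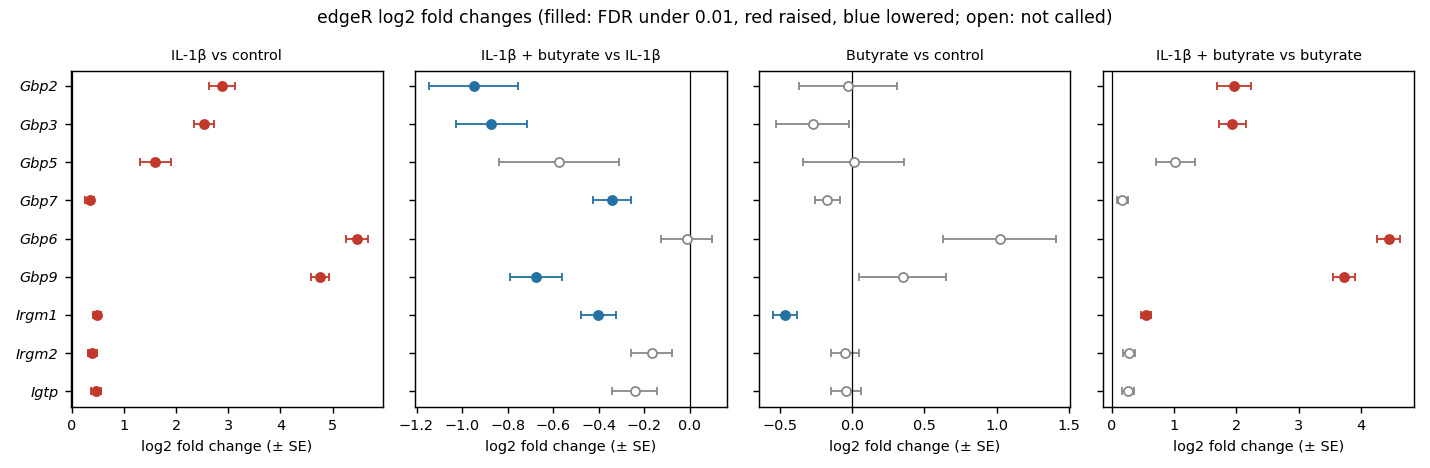
log2 fold changes with SE (horizontal axis, its own scale in each panel) of the 9 tested members in 4 comparisons, filled where the adjusted p was under 0.01. All 9 points are filled on the right of 0 for IL-1β against control, and 5 are filled on the left of 0 when butyrate was added to IL-1β.

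Against control, islets with both agents had 5 members raised (Gbp2, Gbp3, Gbp5, Gbp6 and Gbp9), where 15.8% of all genes were raised and 14.8% lowered, and none lowered (edgeR, 0 at an unadjusted p under 0.05, and 0 with DESeq2). Gbp2 and Gbp6 passed the filter only through the libraries with IL-1β, so the filter favoured their rise. Of the other 7 tested members, Gbp3, Gbp5 and Gbp9 were raised. Gbp6 was 44.1-fold, Gbp9 16.9-fold, Gbp2 3.80-fold and Gbp3 3.16-fold above control. Gbp5 was 2.04-fold above control (adjusted p = 0.0092), a call that was lost in 14 of 24 alternative fits, among them those without any 1 of the control libraries. Irgm1 had a log2 fold change of 0.08 ± 0.08 and Gbp7 of -0.00 ± 0.09. The genes called overall were 2937 raised and 2751 lowered, and 3805 and 1884 with library size only. The sum of the 10 genes was 65.7 ± 3.0 CPM (SD, n = 4) with both agents, between control and IL-1β without overlap with either.

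The third comparison asked what butyrate did alone. It lowered 1 of the 9 tested members, Irgm1, where 11.4% of all genes were lowered and 8.53% raised, and it raised none (edgeR, 1 at an unadjusted p under 0.05, and 0 with DESeq2). The genes called overall were 1585 raised and 2112 lowered, 2207 and 1566 with upper quartiles. Irgm1, the regulator whose loss leaves mice unable to resist several intracellular microbes, had 12.2, 10.9, 11.7 and 9.64 CPM with butyrate against 13.6 to 17.2 CPM in control. All butyrate libraries were below all control libraries, as in 16.8% of all genes, and the log2 fold change was -0.47 ± 0.08 (adjusted p = 0.0001). Gbp6 had 0.804, 0.355, 0.261 and 0.258 CPM (16, 8, 5 and 6 counts) against 0.187 to 0.214 CPM in control. Its groups were apart, with butyrate higher, as in 13.3% of all genes, but the log2 fold change of 1.02 ± 0.39 was not called (adjusted p = 0.05) and was 0.53 without butyrate replicate 1. Gbp9 had a log2 fold change of 0.35 ± 0.30, Gbp3 of -0.27 ± 0.25, Gbp7 of -0.17 ± 0.09, and Gbp2, Gbp5, Irgm2 and Igtp of -0.05 to 0.01, and in these 7 genes the groups overlapped. The values of Gbp5 spread widely with butyrate, at 1.41, 0.622, 0.105 and 0.774 CPM (28, 14, 2 and 18 counts). Iigp1 had 4, 4, 3 and 3 counts and was not called in a fit without the filter (adjusted p = 0.27). The sum over the 10 genes was 35.4 ± 4.0 CPM (SD, n = 4).

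When both conditions held butyrate, IL-1β raised 5 of the 9 tested members (Gbp2, Gbp3, Gbp6, Gbp9 and Irgm1), where 9.92% of all genes were raised and 4.86% lowered, and it lowered none (edgeR, 0 at an unadjusted p under 0.05, and 0 with DESeq2). Here too the filter favoured the rise of Gbp2 and Gbp6, which passed it only through the libraries with IL-1β. Of the other 7 tested members, Gbp3, Gbp9 and Irgm1 were raised. The folds were 21.7 for Gbp6, 13.2 for Gbp9, 3.88 for Gbp2, 3.83 for Gbp3 and 1.46 for Irgm1. Gbp5 had a log2 fold change of 1.02 ± 0.31 (adjusted p = 0.019), and 1.51 (adjusted p = 0.00067) without butyrate replicate 1. The genes called overall were 1844 raised and 903 lowered, 1612 and 1420 with upper quartiles, and 3153 and 451 with library size only. Whether the butyrate effect itself differed with and without IL-1β was tested as an interaction, which called 0 of the 9 members (edgeR, 3 at an unadjusted p under 0.05, and 0 with DESeq2) and 0.0968% of all genes. The most negative interaction terms were -1.04 ± 0.41 for Gbp6 (adjusted p = 0.50), -1.03 ± 0.32 for Gbp9 (adjusted p = 0.30) and -0.92 ± 0.40 for Gbp2 (adjusted p = 0.60). Irgm1, lowered by butyrate both with and without IL-1β, had an interaction term of 0.06 ± 0.11 (adjusted p = 0.97).

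Markers of macrophages, cells that use these GTPases, moved in the same comparisons. For this list and those that follow, the shares of all genes called were 11.2% raised and 6.59% lowered by IL-1β. With butyrate added to IL-1β they were 8.41% raised and 11.1% lowered, and with butyrate alone 8.53% and 11.4%. IL-1β raised 11 of 12 macrophage markers and lowered C1qa, with a median log2 fold change of 2.22 (8 of 9 raised, median 2.25, without Fcgr1, Itgam and Mrc1, which passed the filter through the libraries with IL-1β), and butyrate added to IL-1β lowered 5 of the 12 (Adgre1, Cd68, C1qa, C1qb and C1qc), with a median of -0.68. Butyrate alone lowered C1qa and called none of the other 11. Their summed level was 133 to 145 CPM in control, 196 to 251 CPM with IL-1β, 107 to 150 CPM with both and 88.5 to 107 CPM with butyrate, and none of the 12 was at 0 in a condition. C1qa made up 99.6 to 124 CPM of the sum in control. Without it, a sum taken after its level was seen, the other 11 markers had 20.8 to 33.8 CPM in control, 105 to 184 CPM with IL-1β, 48.3 to 105 CPM with both and 15.7 to 26.5 CPM with butyrate. Adgre1, which encodes the F4/80 antigen, was at 1.79 ± 0.63 CPM in control and 9.74 ± 2.8 CPM with IL-1β (SD, n = 4). The part of these markers in the results of the GTPases was not tested, and in such bulk samples fewer cells of a type and less RNA in each cell cannot be told apart. Markers of T and NK cells, the usual source of interferon-γ, summed to 1.499 to 3.79 CPM in a library, and neither of the 2 that could be tested was called in the comparison of IL-1β with control (edgeR, 1 at an unadjusted p under 0.05, and 0 with DESeq2).

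**Figure D4:**
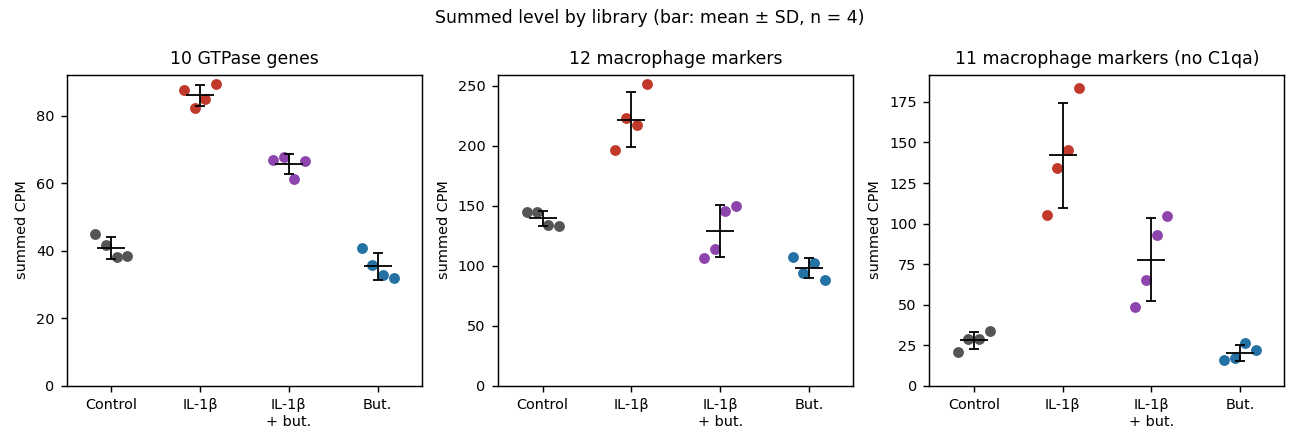
Summed CPM (vertical axis from 0) of the 10 GTPase genes, of 12 macrophage markers and of these without C1qa, in the 4 libraries of each condition (points, with mean and SD). All 3 sums are highest with IL-1β, at 82.3 to 89.4, 196 to 251 and 105 to 184 CPM.

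The interferon genes themselves were hardly counted. None of 14 interferon ligand genes passed the filter, and their summed level was 0.187 to 0.721 CPM in a library. Ifng, the gene of interferon-γ, had 1 to 11 counts a library, 3 to 7 in control and 1 to 11 with IL-1β. Ifnb1 had 0 counts in all 16 libraries.

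Of 9 interferon receptor and kinase genes, IL-1β raised 4 and lowered none (edgeR, 0 at an unadjusted p under 0.05, and 0 with DESeq2), with a median log2 fold change of 0.45. They were both chains of the interferon-γ receptor, Ifngr2 (1.49 ± 0.07) and Ifngr1 (0.65 ± 0.07), and the receptor chains Ifnar2 (1.00 ± 0.09) and Il10rb (0.69 ± 0.08). Butyrate added to IL-1β lowered 4 of the 9, Ifnar2 (-0.41 ± 0.08), Il10rb (-0.32 ± 0.08) and the kinases Tyk2 (-0.28 ± 0.05) and Jak2 (-0.25 ± 0.05), whereas Ifngr1 and Ifngr2, at -0.17 and -0.18, were not called. Butyrate alone raised Ifnlr1 (0.91 ± 0.20) and lowered Jak2 (-0.37 ± 0.05).

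Of 17 tested transcription factors and brakes of the pathway, IL-1β raised 10, with a median of 0.56 on the log2 scale, and 9 of 16 with a median of 0.43 without Irf5, which passed the filter through the libraries with IL-1β. The largest rises were those of Irf5 (2.23 ± 0.29), Nlrc5, the activator of class I antigen presentation genes (1.89 ± 0.22), Socs3, a feedback inhibitor of cytokine receptors (1.70 ± 0.08), and Stat3 (1.10 ± 0.05). Irf1, named here for its role at Gbp promoters after its value was seen, rose by 0.74 ± 0.05. With butyrate added to IL-1β, 1 of the 17 was lowered, Irf7 (-0.93 ± 0.17), and 1 was raised, Socs3 (0.36 ± 0.07). Irf1 then had a log2 fold change of -0.08 and was not called. Butyrate alone lowered Irf7 (-1.06 ± 0.20) and Irf1 (-0.24 ± 0.05) and raised Socs3 (0.79 ± 0.08) and Stat3 (0.19 ± 0.05).

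Other genes of the 2 families could be tested in 5 of 18 cases, and IL-1β raised 4 of these, where 11.2% of all genes were raised. Gbp10 and Gbp11, 2 of the 4, passed the filter only through the libraries with IL-1β, so the filter favoured their rise. Of the other 3 tested, 2 were raised. Gbp8 went from 2.11 ± 0.29 to 19.9 ± 1.9 CPM (SD, n = 4) and Gbp4 from 1.36 ± 0.26 to 17.1 ± 5.1 CPM. Gbp10, which had 73.3% of its stretches of 50 bases in common with Gbp6, had 0 counts in every control library and 13 to 43 counts with IL-1β, at least 9.32-fold higher when control is set to the floor of 3 counts in each library. Gbp11 had 0 to 4 counts in control and 3 to 18 counts with IL-1β. Butyrate added to IL-1β called none of the 5 (edgeR, 2 at an unadjusted p under 0.05, of which 1 was higher and 1 lower, and 0 with DESeq2). Gbp8, which shares exon bases with Gbp9, then had a log2 fold change of 0.08 ± 0.08, and Gbp4 of -0.35 ± 0.18. Irgq, a distant relative, was lowered by butyrate alone (-0.18 ± 0.05). Of 12 GTPases of other families, IL-1β raised only Dnm2 (0.18 ± 0.04), where 11.2% of all genes were raised. Butyrate added to IL-1β raised Dnm1 (2.02 ± 0.08) and Dnm2 (0.17 ± 0.04), where 8.41% of all genes were raised.

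Other interferon-stimulated genes gave a mixed answer. Of 28 tested, IL-1β raised 15 and lowered 1, Rsad2 (-0.40 ± 0.09, named after its value was seen), with a median of 0.34 on the log2 scale. Of the 26 that passed the filter without the libraries with IL-1β, which Ifit3 did not, 14 were raised. The largest rises were those of B2m (1.53 ± 0.07), the immunoproteasome subunit Psmb8 (1.37 ± 0.09), Ifit3 (1.37 ± 0.38) and the chemokine Cxcl10 (1.27 ± 0.27). Butyrate added to IL-1β lowered 9 and raised 3 of the 28, where 11.1% of all genes were lowered and 8.41% raised. The largest changes were those of Ifit2 (1.28 ± 0.27), Cxcl10 (-0.99 ± 0.27), the membrane protein Bst2 (-0.91 ± 0.15) and Oasl1 (0.76 ± 0.20). Butyrate alone lowered 3 of the 28, where 11.4% of all genes were lowered, and raised none (edgeR, 3 at an unadjusted p under 0.05, and 0 with DESeq2).

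Genes of the partners with which these GTPases work were looked at last. Of 9 tested inflammasome and pyroptosis genes, IL-1β raised 5, the caspases Casp1 (3.26 ± 0.31) and Casp4 (3.21 ± 0.22), the pore-forming Gsdmd (1.16 ± 0.12), Il1b (1.02 ± 0.18) and Naip5 (0.93 ± 0.23), and butyrate added to IL-1β lowered 4, Casp1 (-1.72 ± 0.25), Il1b (-1.41 ± 0.19), Casp4 (-0.91 ± 0.17) and Gsdmd (-0.40 ± 0.11), and raised the adaptor Pycard (0.89 ± 0.13). Casp1 and Aim2 passed the filter through the libraries with IL-1β, and of the other 7 tested, 4 were raised by IL-1β, with a median log2 fold change of 0.93. Of 14 genes of the autophagy machinery that helps to place the GTPases on membranes, IL-1β called none (edgeR, 1 at an unadjusted p under 0.05, and 0 with DESeq2). Butyrate added to IL-1β lowered 3 of the 14, where 11.1% of all genes were lowered, with the largest change in Map1lc3a (-0.43 ± 0.07). It raised Map1lc3b (0.22 ± 0.05). Of 6 enzymes of prenylation, the lipid tag that Gbp2 and Gbp5 carry, IL-1β called none (edgeR, 0 at an unadjusted p under 0.05, and 0 with DESeq2). Butyrate added to IL-1β lowered 1 of the 6, Fntb (-0.25 ± 0.07), where 11.1% of all genes were lowered.

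The tested members followed their common mean over the 16 libraries with Pearson r from 0.853 (Gbp7) to 0.971 (Gbp2), each member being part of that mean. The genes outside the family closest to this mean were Asap1 (r = 0.990), Sulf1 (0.980), Rph3al (0.979), Parp14 (0.979) and Psme1 (0.977), over 16 libraries that share 4 conditions. Their Spearman's rho was 0.953 to 0.974, and that of the 5 closest genes by this measure was 0.974 to 0.976. Asap1 tied with the last of those, and the others were below it, so the order rests in part on the measure. Sulf1 was at 0.980 CPM in control, 34.9 CPM with IL-1β, 6.83 CPM with both and 0.818 CPM with butyrate, and Psme1, a proteasome activator subunit, at 29.5, 50.8, 39.0 and 24.4 CPM.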

How the data were processed

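RNA sequencing was done on 16 libraries of cultured mouse islets. The authors mapped reads with STAR 2.5.3a (bcl2fastq 2.19.1, FastQC 0.11.7 and MultiQC 1.7 in the submitters' notes) to GRCm38.p5 and deposited whole-number counts per gene, without normalization. The annotation release, strand setting and read filters are not given in the sources used here. Symbols (for 52403 of 52636 genes), positions and exon lengths came from GENCODE M21, promoters from RefSeq.

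In R 4.3.3, edgeR 4.0.16 filtered (filterByExpr), scaled by TMM and fitted 1 robust quasi-likelihood model to the 4 conditions. A gene counted as called where its p, adjusted over all genes tested (Benjamini-Hochberg), was under 0.01. SE is the log2 fold change divided by the root of F. The pipeline was tested on simulated data. Alternatives were DESeq2 1.42.0, other scalings, no filter, an adjusted p of 0.05, only the libraries compared, a replicate block and leaving out each library.

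All members were named, and from each list the called genes (up to 12 listed genes) or the 4 called genes with the largest change. The members, lists and tests were chosen with earlier results of these data known. Replicates of a condition differed by more than counting error (chi-square per gene 1.72 to 13.5). Reads carried no molecular identifiers, so counts include duplicates. The values of some listed genes are not reported here.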

Additional observations from a re-analysis of the deposited data

Results flagged for a closer look

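In 3 of 40 sets of 4 libraries, the level of 1 GTPase in 1 library lay far from the other 3 by Dixon's criterion, which chance meets in about 1 of 20 such sets. Gbp7 was at 11.4 CPM in replicate 1 of IL-1β with butyrate, and the next library had 10.7 CPM. Irgm2 was at 7.87 CPM in IL-1β replicate 4, and the next had 8.91 CPM. Iigp1 was at 0.0361 CPM in IL-1β replicate 4, which stands for 1 count, and the next had 0.0974 CPM, or 2 counts.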

How the results depend on the processing

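Of 1261 values of single members under the alternatives, 1210 kept their direction and their side of the threshold, 18 were no longer called, 7 became called and 26 changed sign, none of them called in either fit. The sign changes with upper-quartile scaling were in butyrate added to IL-1β for Gbp6 (log2 fold change 0.034), in butyrate alone for Gbp2 (0.018) and Igtp (0.0050), and in both agents against control for Gbp7 (0.011). With library size only they were Gbp5 in butyrate alone (-0.012) and Gbp7 in both agents against control (0.071), and without the filter the same values were -0.00880 and 0.0017. With the replicate block Gbp5 in butyrate alone was at -0.00064. With 1 library left out, the log2 fold change ran from -0.076 to 0.027 for Gbp6 in butyrate added to IL-1β, from -0.038 to 0.068 for Gbp7 in both agents against control, and from -0.0011 to 0.11 for Irgm1 in the difference of the butyrate effects. In butyrate alone it ran from -0.45 to 0.19 for Gbp2, from -0.48 to 0.34 for Gbp5, from -0.095 to 0.0064 for Irgm2 and from -0.11 to 0.023 for Igtp. The number of members called was 8 to 9 of 9 for IL-1β against control when 1 library was left out, 5 in each case for butyrate added to IL-1β, 1 in each case for butyrate alone, 5 to 6 for IL-1β in the presence of butyrate and 4 to 5 for both agents against control. In IL-1β plus butyrate against butyrate, Gbp5 was also called without the filter, with DESeq2 and with the replicate block (adjusted p from 0.0013 to 0.0088), and Irgm2 and Igtp with library size only (adjusted p = 0.0024 and 0.0073), where Irgm2 was also called in both agents against control (0.0083). Scalings moved the median of all genes by at most 0.0978 on the log2 scale. The genes called overall in the interaction were 18, and 95 without the filter, 45 with DESeq2, 39 at a threshold of 0.05 and 11 without butyrate replicate 1, and those for butyrate added to IL-1β were 3629, and 5595 at a threshold of 0.05. The cause of these moves was not tested, apart from the looser threshold.

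Replicate numbers are shared by the conditions, but neither labels nor methods say that a number pairs libraries. The deviations of same-numbered libraries correlated with r from 0.0534 to 0.397, over 0.1 in 17 of 24 pairs, and 21 of 24 correlated best with their own number, a hint from the data. In the column headers the S numbers also run on within each replicate number, and the study speaks of independent experiments, but neither states a pairing. With the replicate block, 9 members were called for IL-1β against control, 5 for butyrate added to IL-1β, 1 for butyrate alone, 6 for IL-1β in the presence of butyrate, 5 for both agents against control and 0 in the interaction, where the genes called overall rose to 132. The members with few counts limit what could be seen, as 1 count was 0.0361 to 0.0523 CPM, near the control level of Iigp1.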

Other observations

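In the comparison of IL-1β with control, markers of other islet cells were called in both directions, where 11.2% of all genes were raised and 6.59% lowered. Of 8 beta cell markers, 7 were lowered, from Ucn3 (-1.16 ± 0.05 on the log2 scale) to Ins1 (-0.26 ± 0.07), and Iapp was raised (0.30 ± 0.07). Of 5 alpha cell markers, 2 were lowered and none raised (edgeR, 1 at an unadjusted p under 0.05, and 0 with DESeq2). None of 3 delta cell markers was called (edgeR, 1 at an unadjusted p under 0.05, and 0 with DESeq2), while butyrate added to IL-1β raised Sst, the somatostatin gene (0.61 ± 0.08). Of 6 tested endothelial markers, IL-1β raised Pecam1 (0.92 ± 0.14), of 7 fibroblast and stellate markers it lowered Pdgfrb (-1.57 ± 0.35), of 4 tested acinar markers it raised Ctrb1 (3.31 ± 0.82), and of 5 duct markers it raised Muc1 (1.93 ± 0.17) and Krt7 (0.23 ± 0.05). The other tested markers of these lists were not called. The median log2 fold change was -0.20 for the endothelial and 0.19 for the fibroblast and stellate markers, opposite in sign to the gene named. It was 2.40 for the acinar and 0.23 for the duct markers. The acinar sum was 23.2 ± 4.9 CPM in control and 22.8 ± 3.1 CPM with IL-1β (SD, n = 4), and DESeq2 raised 1 acinar marker and lowered 1. The part of these cells in the results of the GTPases was not tested.

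Replicate 1 held the highest CPM of 8 of the 9 tested GTPases among the butyrate libraries and of 7 of 9 among the control libraries. Among the IL-1β libraries replicate 4 was highest for 5 members, and among those with both agents replicate 2 for 4.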
